A study of Rattus norvegicus with 10 samples.

Results

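Arc, Npas4, Nptx2, Btg2, Dusp1, Dusp5, Dusp6, Gadd45b, Sik1 and Ier2 are genes that neurons transcribe in response to activity, or that act to end that response. They were taken by symbol from a table of 17168 genes, and all 10 were found in it. Their RNA was measured by sequencing in the left hippocampus of 10 male rats of the TgF-344AD line, aged 11 months, which is a transgenic rat model of Alzheimer's disease. The line carries mutant human amyloid precursor protein and presenilin transgenes driven by the mouse prion promoter, and every animal of both groups carried them. Of these rats, 5 ate plain rodent chow and 5 ate chow with RG2833, which blocks the deacetylases HDAC1 and HDAC3 that take acetyl groups off histones, at 750 mg per kg of chow, from 5 months of age for 6 months. Each library came from 1 rat, and the only comparison in the design is RG2833 against untreated.

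Strong synaptic input raises calcium and cyclic AMP in a neuron, and kinases then act on the transcription factors CREB, SRF and MEF2, which switch on a first wave of genes within minutes. Some of these genes encode transcription factors, of which Npas4 is specific to neurons. Others act on the synapse itself: Arc removes AMPA receptors from the postsynaptic membrane, and Nptx2 is a secreted pentraxin that gathers them at excitatory synapses onto interneurons. A further set restrains the signal, among them the dual-specificity phosphatases, which take phosphate off MAP kinases, and Sik1, a kinase that keeps the coactivators of CREB out of the nucleus.

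No difference between RG2833 and untreated rats passed the test for any of the 10 genes. All 10 passed the filter on low counts, which left 12161 genes, and 0 had an adjusted p under 0.05 in edgeR's quasi-likelihood test, where the same held for 0% of all genes tested. DESeq2 and limma-voom also called 0 of the 10, where DESeq2 called 7 of all genes and limma-voom 0. At an unadjusted p under 0.05 there were 0 of the 10, against 5.66% of all genes, and the smallest unadjusted p was 0.132, for Npas4 (edgeR adjusted p = 0.852). The groups overlapped for every one of the 10 genes, while they did not overlap for 1.00% of all genes. Of the 10, 7 had a lower fitted level in RG2833 and 3 a higher one, where 53.5% of all genes were lower. Their median log2 fold change was -0.16, beside -0.01 for all genes tested. The spread between rats of the same group was wide for several of these genes: the SD of log2 CPM (read counts scaled to a common library size) within groups was above the 90th percentile of all genes for 5 of the 10 (Npas4, Btg2, Dusp1, Dusp5 and Sik1), and near the median of all genes, 0.19, for Dusp6 (0.20).

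**Figure D1:**
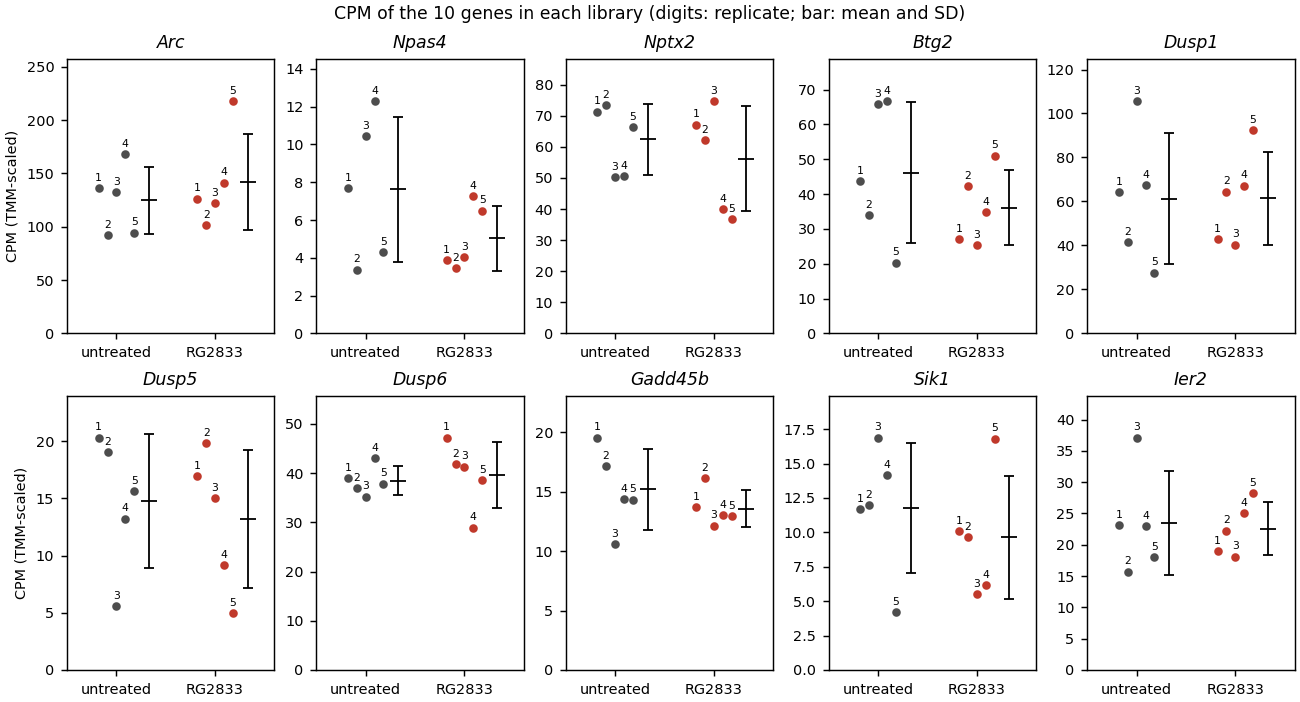
Level of each gene in CPM, on the TMM-scaled library size, on the vertical axis, 1 point per rat with its replicate number, untreated in grey and RG2833 in red, with the mean and SD of 5 libraries beside each group. The groups overlap in all 10 panels, and within a group Dusp5 runs from 4.98 to 19.8 CPM in RG2833 rats.

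**Figure D2:**
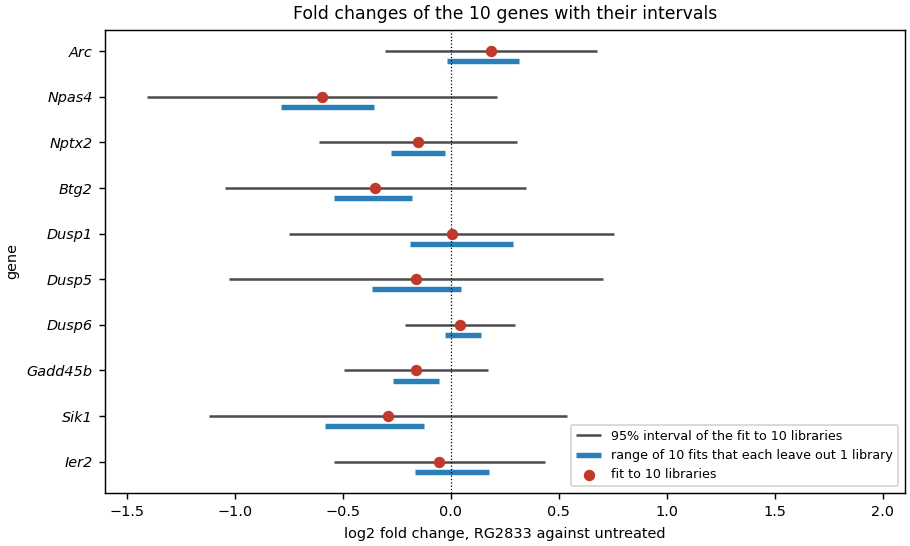
Log2 fold change of RG2833 against untreated for each gene (red point), with its 95% interval (grey) and the range over the 10 fits that each left out 1 library (blue). Every grey interval spans 0, and that of Dusp5 is the widest, from -1.03 to 0.70.

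The sequences just before the start sites of 6 of the genes are shown because they are the ones that hold a motif of the CREB or SRF pathway. Each is the 250 bases before the RefSeq start in the GRCr8 assembly, 5′ to 3′ on the strand of the gene. Capitals mark the cyclic AMP response element TGACGTCA, its half-site TGACG, which is also part of each full element, and the SRF-binding CArG box. All were searched on both strands, and on the strand shown a half-site of the other strand reads CGTCA. Windows were found for 9 of the 10 genes, and those of Npas4, Dusp6 and Gadd45b, which held none of these motifs, are not printed. The coordinates are chr13:48087691-48087940 on the minus strand for Btg2, chr10:17184603-17184852 on the plus strand for Dusp1 and chr19:40399123-40399372 on the plus strand for Ier2. They are chr20:9958647-9958896 on the minus strand for Sik1, chr1:262543524-262543773 on the plus strand for Dusp5 and chr12:15162046-15162295 on the minus strand for Nptx2.
Btg2: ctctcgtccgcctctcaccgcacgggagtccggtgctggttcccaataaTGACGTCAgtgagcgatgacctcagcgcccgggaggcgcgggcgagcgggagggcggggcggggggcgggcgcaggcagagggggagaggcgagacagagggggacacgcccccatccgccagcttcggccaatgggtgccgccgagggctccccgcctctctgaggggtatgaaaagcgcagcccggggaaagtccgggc
Dusp1: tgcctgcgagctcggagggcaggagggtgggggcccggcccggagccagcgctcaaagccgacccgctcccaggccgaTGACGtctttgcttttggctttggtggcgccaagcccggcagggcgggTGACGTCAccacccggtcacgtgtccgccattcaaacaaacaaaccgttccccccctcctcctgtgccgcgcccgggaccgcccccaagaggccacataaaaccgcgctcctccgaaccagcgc
Ier2: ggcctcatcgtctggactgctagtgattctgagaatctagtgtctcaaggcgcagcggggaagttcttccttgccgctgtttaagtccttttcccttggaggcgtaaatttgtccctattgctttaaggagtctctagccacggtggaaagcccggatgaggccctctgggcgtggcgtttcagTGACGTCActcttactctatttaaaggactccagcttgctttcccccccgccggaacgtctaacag
Sik1: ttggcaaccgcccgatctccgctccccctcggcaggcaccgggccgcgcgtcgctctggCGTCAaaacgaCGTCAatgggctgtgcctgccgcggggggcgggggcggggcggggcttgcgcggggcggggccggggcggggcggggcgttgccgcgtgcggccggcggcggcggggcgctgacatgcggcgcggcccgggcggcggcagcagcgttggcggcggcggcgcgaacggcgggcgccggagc
Dusp5: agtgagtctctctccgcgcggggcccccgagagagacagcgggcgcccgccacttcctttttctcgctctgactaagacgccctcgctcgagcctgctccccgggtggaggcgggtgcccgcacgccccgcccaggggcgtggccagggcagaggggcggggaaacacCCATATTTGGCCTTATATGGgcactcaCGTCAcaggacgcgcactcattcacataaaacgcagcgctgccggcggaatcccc
Nptx2: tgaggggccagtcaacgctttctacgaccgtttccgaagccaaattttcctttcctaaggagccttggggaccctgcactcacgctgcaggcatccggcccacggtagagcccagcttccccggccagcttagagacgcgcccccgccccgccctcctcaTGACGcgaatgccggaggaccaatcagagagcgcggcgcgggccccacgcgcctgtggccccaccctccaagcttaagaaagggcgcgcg

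The full element TGACGTCA stood in 3 of the 9 windows, those of Btg2, Dusp1 and Ier2, and in 1.59% of all 33469 windows of the same length. It began 201 bases before the start of Btg2, 124 before that of Dusp1 and 66 before that of Ier2. The half-site, on its own or within the full element, stood in 6 of the 9 windows and in 18.2% of all windows; Sik1 had it at 2 places, 191 and 180 bases before its start. Dusp5 was the only one of the 9 with a CArG box, which 1.5% of all windows held, and it had a pair of them end to end, from 82 to 63 bases before the start. These are matches of letters in the reference sequence of another rat strain, and no binding was measured here.

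Arc, whose product also forms virus-like capsids that leave the neuron, was at 136, 92.1, 132, 168 and 94.5 CPM in untreated replicates 1 to 5. In RG2833 replicates 1 to 5 it was at 126, 101.2, 122, 141 and 218 CPM. The highest value, in RG2833 replicate 5, lay above all untreated values, and the other 4 treated rats lay inside the untreated range. Means were 125 ± 31.7 and 142 ± 44.9 CPM (SD, n = 5 each), with a log2 fold change of 0.19 (SE 0.22, 95% interval -0.30 to 0.68; edgeR adjusted p = 0.941). The sign turned to -0.02 without RG2833 replicate 5. Arc was lowest in the 2 libraries with the largest total counts, untreated replicates 2 and 5, and highest in the one with the smallest, RG2833 replicate 5. Over 10 libraries Pearson's r of its log2 CPM with the total count was -0.82 (permutation p = 0.00385, adjusted 0.0527 over 140 relations; Spearman's rho -0.77, permutation p = 0.0128), and -0.65 without the 2 libraries farthest from the median total. The part of depth in the Arc values was not tested further.

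Npas4 was at 7.67, 3.38, 10.4, 12.3 and 4.29 CPM in untreated replicates 1 to 5, from 66 to 201 counts per library. It was at 3.87, 3.46, 4.03, 7.27 and 6.50 CPM in RG2833 replicates 1 to 5, from 60 to 116 counts. The untreated rats fell into high values in replicates 3 and 4 and low ones in replicates 2 and 5, and on the CPM scale no treated rat reached the untreated mean of 7.62 ± 3.84 CPM. The treated mean was 5.03 ± 1.73 CPM (SD, n = 5 each). Its log2 fold change of -0.60 (SE 0.37, 95% interval -1.41 to 0.21) was the farthest from 0 among the 10 genes in the fit to all 10 libraries and did not pass (edgeR adjusted p = 0.852; two-sided exact permutation p of log2 CPM 0.262, where the smallest possible is 0.00794). Without untreated replicate 2 the unadjusted p was 0.0358, with an adjusted p of 1.00, and without untreated replicate 4 the log2 fold change was -0.36. Npas4 was lower where CA1 markers were higher, at r = -0.83 over the 10 libraries (permutation p = 0.00313, adjusted 0.0515 over 140 relations; rho -0.76, permutation p = 0.0152), and -0.75 without the 2 farthest libraries. Within the 6 libraries low in neocortex markers, described below, this r was -0.46. The CA1 list was not alone, as Npas4 was higher where GABA interneuron markers were higher. There r was 0.76 over the 10 libraries (permutation p adjusted to 0.0727) and 0.76 within the 6. The mean log2 CPM of the CA1 markers was 0.37 higher in RG2833 (exact permutation p = 0.167), and its part in the Npas4 difference was not tested.

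Nptx2 stood at 71.3, 73.5, 50.1, 50.5 and 66.4 CPM in untreated replicates 1 to 5. The RG2833 values were 67.2, 62.1, 74.8, 39.9 and 36.7 CPM for replicates 1 to 5. In each group 3 rats were above 60 CPM, and the other 2 were lower. The means were 62.4 ± 11.3 and 56.1 ± 16.9 CPM (SD, n = 5 each), with a log2 fold change of -0.15 (SE 0.21, 95% interval -0.61 to 0.31). It was -0.28 without RG2833 replicate 3 and -0.03 without RG2833 replicate 5. Without the 3 libraries lowest in CA3 markers, untreated replicate 3 and RG2833 replicates 4 and 5, it was 0.05.

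Dusp1 encodes a nuclear phosphatase that acts on ERK, p38 and JNK kinases. It was at 64.3, 41.4, 106, 67.6 and 27.6 CPM in untreated replicates 1 to 5 and at 42.7, 64.5, 40.4, 67.2 and 92.3 CPM in RG2833 replicates 1 to 5. The treated values lay within the untreated range, and the means were 61.3 ± 29.8 and 61.4 ± 21.2 CPM (SD, n = 5 each). The log2 fold change was 0.0027 with an SE of 0.34, so a change within a 95% interval of -0.75 to 0.76 was not resolved, and its sign has no meaning at this size.

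Dusp5, a nuclear phosphatase that acts on ERK alone, had the widest range of the 10 genes, with a ratio of 4.08 between its highest and lowest library. Untreated replicates 1 to 5 gave 20.3, 19.1, 5.61, 13.2 and 15.6 CPM. RG2833 replicates 1 to 5 gave 16.9, 19.8, 15.03, 9.14 and 4.98 CPM. Both groups thus held rats near 20 CPM and 1 rat near 5 CPM, at 72 counts in RG2833 replicate 5 and 94 in untreated replicate 3. The means were 14.8 ± 5.83 and 13.2 ± 6.02 CPM (SD, n = 5 each), and the log2 fold change was -0.16 (SE 0.39, 95% interval -1.03 to 0.70).

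Dusp6, the cytoplasmic phosphatase of ERK, varied least. It ran from 35.2 to 43.1 CPM in untreated rats (39.0, 36.9, 35.2, 43.1 and 37.9 in replicates 1 to 5) and from 28.9 to 47.2 CPM in RG2833 rats (47.2, 41.8, 41.3, 28.9 and 38.6). The lowest and the highest of the 10 rats were both treated. The means were 38.4 ± 2.96 and 39.6 ± 6.72 CPM (SD, n = 5 each), and the log2 fold change of 0.04 (SE 0.12) had a 95% interval of -0.21 to 0.30, the narrowest of the 10.

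Sik1 was at 11.7, 11.99, 16.9, 14.1 and 4.18 CPM in untreated replicates 1 to 5. In RG2833 replicates 1 to 5 it was at 10.1, 9.65, 5.50, 6.14 and 16.8 CPM. Of the treated rats 4 lay below the untreated mean on the log2 scale, and RG2833 replicate 5 was nearly level with the highest untreated rat. The means were 11.8 ± 4.73 and 9.63 ± 4.50 CPM (SD, n = 5 each), with a log2 fold change of -0.29 (SE 0.37, 95% interval -1.12 to 0.54), which was -0.58 without RG2833 replicate 5 and -0.13 without untreated replicate 3. The sample-weighted limma-voom fit gave -0.0070.

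Btg2, an antiproliferative partner of mRNA deadenylases, was at 43.7, 34.0, 65.8, 66.7 and 20.3 CPM in untreated replicates 1 to 5. The treated rats were at 27.1, 42.3, 25.4, 34.8 and 51.0 CPM. Untreated rats held both the highest values and the lowest one, so the treated values lay wholly within their range. Means of 46.1 ± 20.2 and 36.1 ± 10.7 CPM (SD, n = 5 each) gave a log2 fold change of -0.35 (SE 0.32, 95% interval -1.05 to 0.35; edgeR adjusted p = 0.919). It was -0.19 without untreated replicate 3, -0.18 without untreated replicate 4 and -0.54 without untreated replicate 5. The sample-weighted limma-voom fit gave -0.069.

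Gadd45b, which takes part in activity-induced DNA demethylation in neurons, was at 19.6, 17.2, 10.6, 14.4 and 14.3 CPM in untreated replicates 1 to 5. In the treated rats it was at 13.7, 16.1, 12.2, 13.0 and 12.9 CPM. Of these, 4 lay below the untreated mean on the log2 scale, and the lowest of all 10 rats was untreated replicate 3. The means were 15.2 ± 3.38 and 13.6 ± 1.52 CPM (SD, n = 5 each), with a log2 fold change of -0.16 (SE 0.15, 95% interval -0.50 to 0.17). Without untreated replicate 3 it was -0.27, at an unadjusted p of 0.0446 and an edgeR adjusted p of 0.346, and with untreated replicate 1 left out it was -0.055.

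Ier2, an early response gene that encodes a small nuclear protein, was at 23.2, 15.7, 37.1, 23.0 and 18.0 CPM in untreated replicates 1 to 5 and at 19.0, 22.3, 18.1, 25.1 and 28.3 CPM in RG2833 replicates 1 to 5. Untreated replicate 3 was the highest, and RG2833 replicates 4 and 5 lay above the other 4 untreated rats. The means were 23.4 ± 8.32 and 22.5 ± 4.25 CPM (SD, n = 5 each), and the log2 fold change of -0.05 (SE 0.22, 95% interval -0.54 to 0.43) was 0.17 without untreated replicate 3.

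Some of the 10 genes varied together from rat to rat, though the share of all gene pairs that do so was not counted. Over the 10 libraries, 45 pairs of genes were compared by Pearson's r of log2 CPM, and 5 pairs passed after adjustment over the 45. By Spearman's rho 2 of the 45 passed, Dusp1 with Ier2 and Btg2 with Dusp1. Btg2, Dusp1, Sik1 and Ier2 made up 3 of these pairs, all positive. For Dusp1 and Ier2 r was 0.90 (permutation p = 0.00049, adjusted 0.0148; Spearman's rho 0.90, permutation p = 0.00085), and 0.95 without the 2 libraries farthest from the median of Dusp1. For Btg2 and Dusp1 r was 0.89 (permutation p = 0.00066, adjusted 0.0148; rho 0.90, permutation p = 0.001), and 0.93 without the 2 farthest libraries. For Btg2 and Sik1 r was 0.85 (permutation p = 0.00222, adjusted 0.0333; rho 0.83, permutation p = 0.00451, adjusted 0.0542), and 0.78 without the 2 farthest. In plain terms, untreated replicate 5 was the lowest of the 10 rats for Btg2, Dusp1 and Sik1, and untreated replicate 3 was the highest for Dusp1, Sik1 and Ier2.

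Arc and Npas4 leaned the same way as these 4 genes. Among the 15 pairs that Arc, Npas4, Btg2, Dusp1, Sik1 and Ier2 form, a set put together after the values were seen, r was positive in all 15 and ran from 0.47 to 0.90. Over all 10 libraries Nptx2 and Dusp5 ran against them: in the 12 pairs of either gene with one of the 6, r was negative in all 12, from -0.79 to -0.34, while 3 of the 12 were positive without the 3 libraries lowest in CA3 markers. Only 1 of these 12 passed, Dusp5 with Ier2, at r = -0.79 (permutation p = 0.00512, adjusted 0.0461; rho -0.58, permutation p = 0.0881, adjusted 0.18). Nptx2 and Dusp5 went together at r = 0.84 (permutation p = 0.00472, adjusted 0.0461; rho 0.71, permutation p = 0.0279, adjusted 0.0967). Dusp6 and Gadd45b had r between -0.50 and 0.17 with each of the 6 over the 10 libraries.

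**Figure D3:**
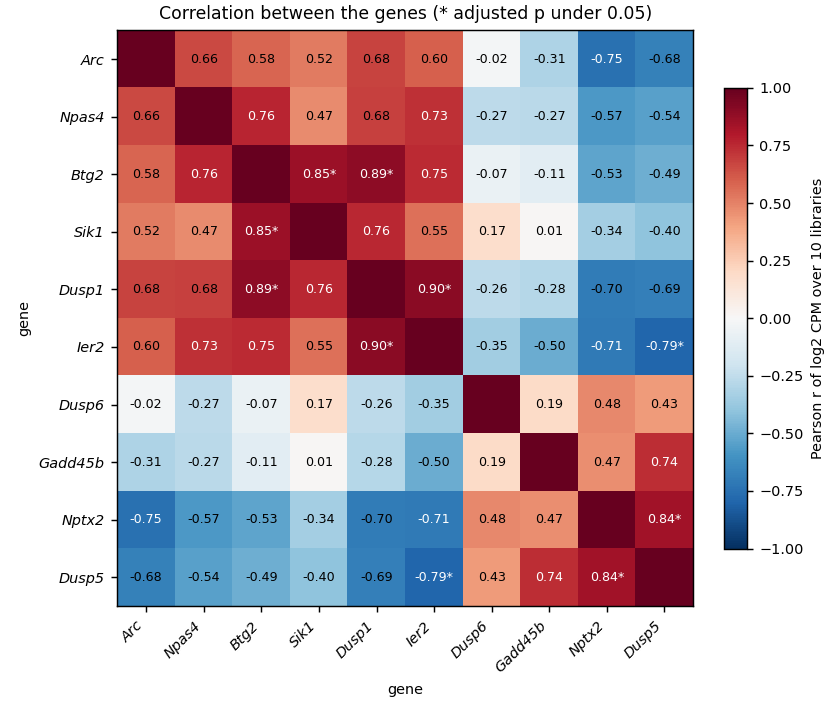
Pearson's r of log2 CPM over 10 libraries for each pair of the 10 genes, red for positive and blue for negative, with an asterisk where the permutation p adjusted over 45 pairs was under 0.05. The red block holds Arc, Npas4, Btg2, Sik1, Dusp1 and Ier2, and the blue cells at the edges are their pairs with Nptx2 and Dusp5.

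The correlations depended on which libraries were included, and those of Dusp5 with several genes turned sign. The count of 5 passing pairs itself was 1 without untreated replicate 5, the lowest rat for Btg2, Dusp1 and Sik1. Without the 2 libraries farthest from the median of the first gene, r was -0.43 for Dusp5 with Ier2 and 0.72 for Nptx2 with Dusp5. On the markers of neocortex (mean log2 CPM of 9 genes), the libraries fell into separate sets, 6 low (untreated replicates 1, 2 and 5, RG2833 replicates 1, 2 and 3) and 4 high. Within the 6, 9 of the 12 pairs of Nptx2 or Dusp5 with the block of Arc, Npas4, Btg2, Dusp1, Sik1 and Ier2 were positive, among them all those of Dusp5 and those of Nptx2 with Arc (0.26), Npas4 (0.23) and Sik1 (0.045). There r was -0.22 for Nptx2 with Dusp5, and for Dusp5 it was 0.93 with Btg2, 0.84 with Sik1, 0.80 with Dusp1 and 0.50 with Ier2, all negative over the 10. Dusp5 with Gadd45b was positive both over the 10 (0.74, not passing) and within the 6 (0.91). Gadd45b was also positive within the 6 with Btg2 (0.77), Sik1 (0.68), Dusp1 (0.58), Npas4 (0.51) and Ier2 (0.41). Within the same 6 it was 0.95 for Btg2 with Dusp1, 0.82 for Btg2 with Sik1 and 0.75 for Dusp1 with Ier2, while Sik1 with Ier2, at 0.55 over the 10, was at 0.25. All 15 pairs of the block were positive within the 6, the lowest being Npas4 with Sik1 (0.13), Arc with Btg2 (0.22) and Arc with Sik1 (0.23). The block was put together on values that include these 6 libraries, so its signs there are no separate test. Without the 3 libraries lowest in CA3 markers the pairs Btg2 with Dusp1, Btg2 with Sik1 and Dusp1 with Ier2 were at 0.92, 0.84 and 0.81, though 0 of the 45 pairs then passed over 7 libraries.

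The hippocampus is a mixture of fields and cell types, and a dissected piece can take in neighbouring tissue; in bulk RNA fewer cells of a type and less RNA per cell cannot be told apart. Nearly all markers of dentate granule cells, CA1 and CA3 had counts in every library; Tdo2, of the dentate list, was at 0 in all 10, and Lefty1 and Spink8 (CA1) and Iyd (CA3) were at 0 in some. Summed over the 8 dentate genes in the table, the level ran from 225 to 416 CPM in untreated and from 262 to 370 CPM in RG2833 rats. It ran from 498 to 1219 and from 729 to 1101 CPM for the 8 CA1 genes, and from 236 to 734 and from 303 to 668 CPM for the 9 CA3 genes. The 9 neocortex genes, of which several are also transcribed in hippocampus, summed to 284 to 403 and 292 to 429 CPM, and the 10 microglia genes to 503 to 966 and 546 to 781 CPM. Total expected counts were 15118203 to 18533520 per library. Choroid plexus genes summed to 8169 CPM in untreated replicate 2 and 9448 CPM in RG2833 replicate 1, far above the other 8 libraries.

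Nptx2 and Dusp5 separated the libraries by their neocortex level without overlap. Nptx2 was at 62.1 to 74.8 CPM in the 6 rats low in neocortex markers and at 36.7 to 50.5 CPM in the 4 that were high. Dusp5 was at 15.03 to 20.3 CPM in the 6 and at 4.98 to 13.2 CPM in the 4. Dusp1 was the reverse, at 27.6 to 64.5 CPM in the 6 and 67.2 to 106 CPM in the 4, and for the other 7 genes the sets overlapped. The share of all genes tested that separate these sets was not counted, so the separation cannot be called particular to Nptx2, Dusp5 and Dusp1. Because the libraries form sets, no r over all 10 is given for this list. Within the 6, r with the neocortex markers was -0.83 for Nptx2 (exact permutation p = 0.0778, adjusted 0.635 over 10 genes; rho -0.77, exact permutation p = 0.103) and -0.27 for Dusp5 (exact permutation p = 0.615). Neither passed over these 6 libraries. Both sets held rats of both groups, and the part of dissected neocortex in these levels was not tested.

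Markers of other cell types were compared in the same way. Of 140 relations between a gene and a library measure (12 marker lists, the total count and the number of genes detected), 5 passed after adjustment over the 140. The neocortex list with Nptx2 and with Dusp5 made up 2 of them, and since the libraries form sets on that list these 2 are only counted. The count of 5 dropped to 1 when untreated replicate 3 was left out, and to 2 when RG2833 replicate 5 was. Ier2 followed the microglia markers, with r = 0.93 (permutation p = 5.00e-05, adjusted 0.0042; rho 0.82, permutation p = 0.00563), 0.77 without untreated replicate 3 and RG2833 replicate 5. It ran against the dentate granule cell markers, with r = -0.88 (permutation p = 0.00141, adjusted 0.0395; rho -0.76, permutation p = 0.0152), -0.60 without untreated replicates 2 and 3. The other passing relation was that of Dusp5 to the striatal markers, on which the same 6 and 4 libraries stood apart without overlap, so it is only counted; within the 6, r was -0.35. For Ier2 within the 6, r was 0.70 with the microglia and -0.55 with the dentate markers. The relation of Dusp5 to the CA3 markers, r = 0.88, did not pass (permutation p = 0.00282, adjusted 0.0515; rho 0.62, permutation p = 0.0608), and it was -0.13 without the 3 libraries lowest in those markers. Other relations just short of passing were those of Dusp5 to microglia (r = -0.87) and endothelium markers (-0.86), each with a permutation p adjusted to 0.0515, and of Dusp1 to microglia markers (0.80, adjusted 0.0527). Without the 3 libraries lowest in CA3 markers these were at 0.077, 0.19 and 0.46. By rank, 2 of the 140 relations passed, those of Nptx2 to microglia markers (permutation, adjusted p of rho 0.0322) and to neocortex markers. The same adjusted p was 0.112 for Ier2 with microglia and with dentate markers, and for Dusp5 with neocortex and with striatal markers. For Dusp5 with CA3 markers it was 0.268. For Nptx2 with microglia markers rho was -0.94 and r was -0.74 (permutation p = 0.0146, adjusted 0.0888), and r was -0.82 without the 2 farthest libraries. Without the 3 libraries lowest in CA3 markers r was -0.48 for Nptx2 and 0.67 for Ier2. Untreated replicate 3, the highest of the 10 in microglia markers, was also the lowest in dentate markers, and it had the largest share of ribosomal RNA, 11.4%, where the lowest share was 4.07%; their part in these relations was not tested.

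**Figure D4:**
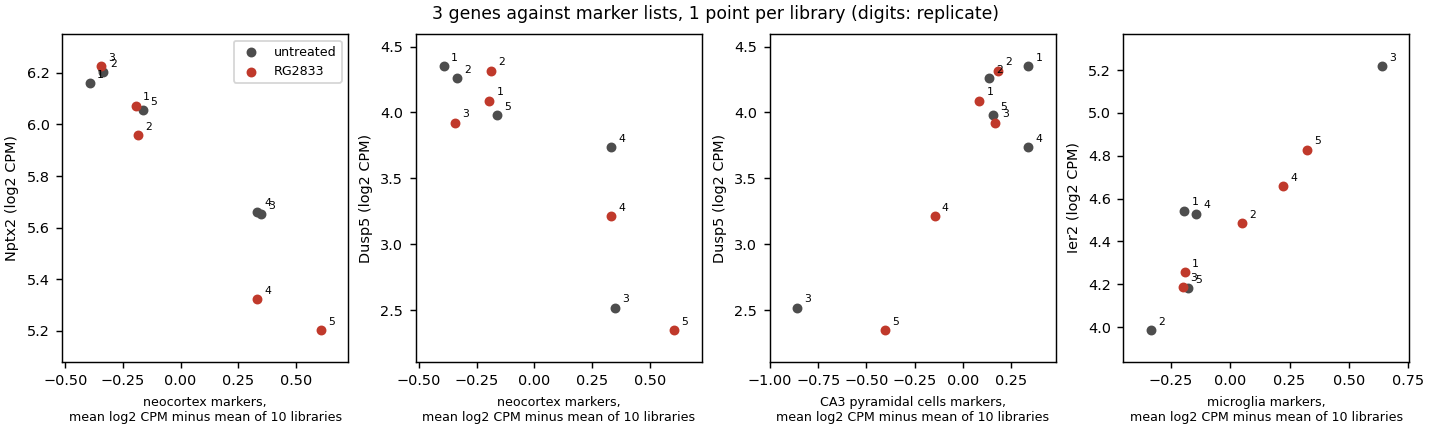
Log2 CPM of Nptx2, Dusp5 and Ier2 (vertical axes) against the mean log2 CPM of marker lists, as the difference from the mean of the 10 libraries (horizontal axes), 1 point per rat with its replicate number, untreated in grey and RG2833 in red. In the neocortex panels 6 rats lie at -0.39 to -0.16 and 4 at 0.33 to 0.61, and rats of both groups are found in each set; in the CA3 and microglia panels untreated replicate 3 stands at -0.86 and 0.64.

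The genes among those tested whose log2 CPM followed each of the 10 most closely are given as a description, by the highest Pearson's r over the 10 libraries. For Btg2 they were Apold1 (r = 0.97), an early response gene of endothelium, and Egr2 (0.93), an immediate early transcription factor. For Sik1 they were Gem (0.92), an inducible small GTPase, and again Apold1 (0.90). Arc was nearest to Cacnb4 (0.94), a calcium channel subunit, and Tppp (0.92), a tubulin-binding protein. Npas4 was nearest to Tac1 (0.95), the precursor of substance P, and Cntn6 (0.91), a contactin. Ier2 was nearest to Cx3cr1 (0.96), the fractalkine receptor of microglia, and Vstm2b (0.96).

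For Nptx2 the nearest genes were Vwa9 (r = 0.98) and Baiap2 (0.96), which encodes a scaffold of dendritic spines. Dusp5 was nearest to Cst6 (0.99), a cystatin, and Srprb (0.98), a subunit of the signal recognition particle receptor. Dusp1 was nearest to Ctla2a (0.95), a gene at low counts. Dusp6 was nearest to Prpf38a (0.93), a splicing factor, and Lysmd3 (0.89), and Gadd45b to Cnot2 (0.93), a subunit of the CCR4-NOT deadenylase, and Med20 (0.93), a Mediator subunit. Each was picked as the highest r among 12161 genes, so these values are no test.

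None of the other genes of the pathway passed either. Over 7 lists with 98 tested genes, each counted once, 0 had an adjusted p under 0.05 in edgeR's quasi-likelihood test, and 5 had an unadjusted p under 0.05. Of those 5, 1 was higher in RG2833, where 2.94% of all genes were, and 4 were lower, where 2.71% of all genes were. Of all genes under that unadjusted p 52.0% were higher, a share that was 39.3% with upper-quartile scaling. The count of 5 was 10 without untreated replicate 3, 3 without untreated replicate 4 or RG2833 replicate 4, and 2 without RG2833 replicate 3.

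Among 21 other activity-induced effectors, 6 were higher and 15 lower in fitted level, where 53.5% of all genes were lower. Their median log2 fold change was -0.11, and 2 had an unadjusted p under 0.05. Rgs2, a regulator that speeds the shut-off of G proteins, was at 18.4 to 21.1 CPM in the untreated rats and at 15.01 to 17.9 CPM in those fed RG2833, with no overlap between the groups; it was 1 such gene of the 98, and 1.00% of all genes had none either. Its log2 fold change was -0.23 (SE 0.08; unadjusted p = 0.0127, edgeR adjusted p = 0.841; exact permutation p = 0.00794, the smallest possible). Cyr61, a secreted matrix protein, ran from 5.32 to 32.7 CPM without the drug and from 6.59 to 14.7 CPM with it. Its log2 fold change of -0.91 (SE 0.40; unadjusted p = 0.043, edgeR adjusted p = 0.841) was -0.34 in limma-voom with sample weights.

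Feedback inhibitors of ERK showed no common direction. Of 16 other MAP kinase phosphatases, Sprouty and Spred genes, 10 were higher and 6 lower, with a median log2 fold change of 0.10. Spred2, an inhibitor of the ERK cascade, averaged 24.3 ± 2.84 CPM without the drug and 28.7 ± 3.27 CPM with it (SD, n = 5 each), with a log2 fold change of 0.24 (SE 0.10; unadjusted p = 0.0377, edgeR adjusted p = 0.841). In 16 genes of the MAP kinase cascade itself the median log2 fold change was -0.01, 6 higher and 10 lower. The smallest unadjusted p there belonged to Nras, a small GTPase (log2 fold change 0.15, SE 0.08; edgeR adjusted p = 0.841).

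The relatives of Gadd45b, Btg2 and Ier2 were mostly lower, 9 of 10, where 53.5% of all genes were. Their median log2 fold change was -0.12. Gadd45g was at 7.91, 10.2, 10.4, 12.7 and 7.71 CPM in untreated and at 8.33, 5.96, 6.396, 7.52 and 7.40 CPM in RG2833 replicates 1 to 5. In 4 of the 5 treated rats it lay below every untreated value, and its log2 fold change was -0.46 (SE 0.15; unadjusted p = 0.0129, edgeR adjusted p = 0.841). Of the AP-1 and Egr factors 9 of 10 were lower, beside the same 53.5% of all genes, with a median of -0.18. Of these only Junb had an unadjusted p under 0.05, at 79.0 ± 13.4 and 60.8 ± 9.71 CPM (SD, n = 5 each; log2 fold change -0.38, SE 0.14; edgeR adjusted p = 0.841). These lists are small, and no test of a list as a whole was made.

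None of the upstream regulators or synaptic partners had an unadjusted p under 0.05. In the list of CREB, SRF and MEF2 regulators 6 of 13 genes were higher and 7 lower, with a median log2 fold change of -0.01. Camk4, a nuclear kinase that activates CREB, had the smallest unadjusted p there (log2 fold change -0.30, SE 0.16; edgeR adjusted p = 0.841), and it was -0.13 without untreated replicate 3, whose 40.8 CPM was the highest of the 10. Atf1, a CREB relative, followed with -0.16 (SE 0.11), and was -0.072 without untreated replicate 2. Among 14 partners of Arc and the pentraxins, 4 were higher and 10 lower, with a median of -0.04, and the nearest to passing were Cacng2, an auxiliary AMPA receptor subunit (0.11, SE 0.07), and Dlg4, the postsynaptic scaffold PSD-95 (0.14, SE 0.10). Cacng2 was at 0.043 without the 3 libraries lowest in CA3 markers and at 0.16, with an unadjusted p of 0.0276, without RG2833 replicate 1. Dlg4 was at 0.22, with an unadjusted p of 0.0324, without untreated replicate 3.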

How the data were processed

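RNA from the left hippocampus was sequenced from mRNA libraries prepared with a stranded kit, per the labels' protocols. The submitters' processing notes name bcl2fastq 2.17, Bowtie2 2.1.0, RSEM 1.2.15, edgeR and the build rn6; annotation, filters and use of strand in counting are not given in the sources used here. One sentence of the design text names another drug, ibudilast, and gives the start and length of treatment printed here; the sample labels, which name RG2833, were followed for the drug. The authors deposited RSEM expected counts, estimates of which 11.6% were not whole, and a second table of TMM-normalized CPM signal. In the latter 100% of the values were whole multiples of 1 step (tolerance 0.01), and in each library at least 99.9% of the reads recovered equalled the rounded expected counts.

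Expected counts were rounded and analysed with edgeR 4.0.16 (R 4.3.3): filterByExpr (minimum count 10, minimum total 15), TMM scaling and the quasi-likelihood test (robust option), adjusted by Benjamini-Hochberg over 12161 genes, threshold 0.05. Standard errors and 95% intervals were derived from the test statistic. CPM was computed on TMM-scaled library sizes, with a prior count of 2 on the log2 scale. For single values all 252 regroupings gave a two-sided exact permutation p, and correlations by two-sided permutation (100000 resamples). DESeq2 1.42.0 and limma 3.58.1 were alternatives. The fit and the correlation were tested on simulated data. No 2 libraries were duplicates: chi-square per gene was at least 7.46 over 45 pairs. Motifs were searched in RefSeq sequences of GRCr8.

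The genes and lists were chosen with earlier results of these data known. Named beside the 10 genes were list members with an unadjusted p under 0.05, or else the 2 with the smallest, and the 2 genes with the highest r to each; 2 genes that this rule names are not reported here.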

Additional observations from a re-analysis of the deposited data

Results flagged for a closer look

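The lowest and the highest library of each group of 5 were compared with the nearest of the others, for the CPM of the 10 genes and the mean log2 CPM of 12 marker lists. Of 44 such sets 3 had a gap above 0.71 of the range of the group, where chance gives about 2.2. None of the 3 concerned one of the 10 genes; the widest gap among these was that of Arc in RG2833 replicate 5, at 0.656 of the range. In untreated replicate 3 the CA3 markers were low by 0.83 of the range, and in the same rat the microglia markers were high by 0.805 of it. In RG2833 replicate 1 the choroid plexus markers were high by 0.71 of the range. Untreated replicate 3 is also the rat with the highest Dusp1, Sik1 and Ier2 and the lowest Gadd45b of the 10, and the part of tissue content in these values was not tested.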

How the results depend on the processing

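In all fits run, 0 of the 10 genes had an adjusted p under 0.05. Over all genes 0 were called, except 7 in DESeq2. Genes at an unadjusted p under 0.05 numbered 688, against 1263 in limma-voom with sample weights, and from 375 (without RG2833 replicate 4) to 1732 (without untreated replicate 3) when 1 library was left out, with 424 without RG2833 replicate 5. Of the 10 genes 0 to 1 had an unadjusted p under 0.05 when 1 library was left out: Npas4 without untreated replicate 2, and Gadd45b without untreated replicate 3. Of the other pathway genes it was 2 to 10, against 5. With the replicate number as a block there were 401 genes, 3 of them pathway genes and 0 of the 10; same-numbered rats did not deviate together (r from -0.49 to -0.03 over 5 pairs), so the numbers do not pair the samples. Npas4, Btg2, Gadd45b and Sik1 kept a negative sign in every fit. The range when 1 library was left out was -0.020 to 0.32 for Arc, -0.19 to 0.29 for Dusp1, -0.37 to 0.048 for Dusp5, -0.029 to 0.14 for Dusp6 and -0.17 to 0.17 for Ier2. Signs also turned without the 3 libraries lowest in CA3 markers, a choice made after seeing the data, for Arc (-0.078), Nptx2 (0.053), Dusp1 (-0.031) and Dusp5 (0.015). Without the 2 libraries rich in choroid plexus RNA they turned for Dusp1 (-0.012) and Dusp6 (-0.050), with sample weights for Ier2 (0.068), and for Dusp1 with upper-quartile scaling (-0.0096) and a minimum of 1 CPM in every library (-0.00019). The deposited TMM CPM moved each group mean by less than its SD. The 5 gene pairs that passed became 12 with group means subtracted, which leaves fewer independent values, 1 (without untreated replicate 5) to 6 when 1 library was left out, and 0 without the 3 low-CA3 libraries. Leaving out RG2833 replicate 3 or 5 gave 2 pairs, and leaving out untreated replicate 1 or 2 or RG2833 replicate 1 gave 3. The 5 relations with library measures became 18, 1 (without untreated replicate 3) to 11 (without RG2833 replicate 2), and 0 without the 3 low-CA3 or the 2 choroid-rich libraries; there were 8 when untreated replicate 4 was dropped, 3 for RG2833 replicate 4 and 2 for RG2833 replicate 5. What moved these counts was not tested in any setting. The lowest counts in a library were those of Npas4 (60 to 201), Dusp5 (72 to 372) and Sik1 (77 to 283).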
